A study of Mus musculus with 12 samples.

Results

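The genes that encode the constitutive proteasome were followed in mouse liver after lipopolysaccharide (LPS), a cell wall component of Gram-negative bacteria that activates NF-kappaB through Toll-like receptor signalling. The set holds every gene whose symbol starts with Psma, Psmb, Psmc or Psmd and a digit, without the interferon-induced subunits Psmb8, Psmb9 and Psmb10. It comprised 37 of the 19938 genes measured, each read from its brightest probe set over the 12 arrays, and the rule used no difference between groups. Of the 37 genes, 34 encode subunits of the standard particle or its assembly chaperones. Psma8 and Psmb11 encode 20S subunits known from testis and thymus, and Psmc3ip fits the naming rule but encodes a meiotic recombination cofactor and no subunit.

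Male mice of C57Bl6/J background gave 12 livers, 4 in each of 3 groups, with 1 array per liver. The first group was homozygous for the p65 S534A knock-in allele and received LPS at 1 µg/kg. The second was wild type (WT) and received the same LPS dose, and the third was WT and untreated. The allele replaces serine with alanine in exon 10 of Rela, the gene of the p65 subunit of NF-kappaB. It was targeted in PTL1 embryonic stem cells, backcrossed 5 times to C57Bl6/J, and is carried in the germ line, so no cell type is singled out. No label states how long after LPS the livers were taken, and untreated S534A livers were not analysed here. The untreated arrays carry titles of another scheme than the LPS arrays, so LPS and any difference in handling cannot be told apart. The labels do not say outright that the livers of a group came from separate animals, so p-values reflect only the spread over these 12 samples, which may be technical in part.

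The proteasome degrades proteins marked with ubiquitin. Its 20S core stacks rings of alpha subunits, which gate the entry, around rings of beta subunits, of which Psmb5, Psmb6 and Psmb7 carry the proteolytic sites. The 19S particle caps the core: ATPases of the Psmc family unfold the substrate, and Psmd subunits of the base and lid bind and remove ubiquitin. After interferon or inflammatory signals, Psmb8, Psmb9 and Psmb10 can take the places of Psmb5, Psmb6 and Psmb7 in newly built cores. The transcription factor Nfe2l1 is known to raise constitutive subunit genes together when proteasome activity is short. In NF-kappaB signalling the proteasome degrades the inhibitor IkappaB.

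Every value is a log2 expression level or a difference between such levels, and a gene was called at an adjusted p under 0.05 in limma's moderated test with Benjamini-Hochberg adjustment over all 19938 genes. The mean over 9 measured hepatocyte markers was between 13.57 and 13.64 on all arrays, near the top of the scale at 14.48. Of these markers 2 rose and 1 fell in WT LPS against WT untreated livers, where 9.34% of all genes rose and 15.6% fell. The mean over 18 measured exocrine pancreas markers was 8.89 on S534A LPS replicate 3, 7.98 on WT LPS replicate 2 and 6.47 on WT LPS replicate 3, against 5.61 to 6.09 on the other arrays. Untreated arrays 1 and 3 differed from 2 and 4 in circadian clock genes: Dbp stood at 8.14 and 7.59 on the first pair and at 11.19 and 11.39 on the second. Rela itself averaged 11.20 ± 0.06 in S534A LPS livers, 11.11 ± 0.08 in WT LPS livers and 9.96 ± 0.14 in WT untreated livers (SD, n = 4 each). Its probe set cannot see the substitution, so Rela does not check the genotype labels.

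After LPS most constitutive proteasome genes did not pass the test, a small group rose by less than 1 on the log2 scale, and 1 chaperone gene fell. In WT LPS against WT untreated livers, 6 of the 37 genes rose (16.2%, against a background of 9.34% of all genes called higher) and 1 fell (2.70%, against 15.6% called lower). In S534A LPS against WT untreated livers, 8 rose (21.6%, against 11.0%) and 1 fell (2.70%, against 16.0%). The median difference of the 37 was 0.03 in both comparisons, beside 0.02 and 0.03 over all genes. These comparisons share their untreated arrays, so their values stand side by side and are not independent of each other. Psma5, Psmd10, Psmd7, Psmb5, Psma1 and Psmd1 were the genes that rose in WT LPS livers, Psma7 and Psmc3 were called in addition in S534A LPS livers, and Psmd5 fell in both. No member changed by more than 1 on the log2 scale, a size passed by 3.21% of all genes in WT LPS and 4.17% in S534A LPS livers. In bulk tissue, fewer cells of a type and less RNA per cell cannot be told apart.

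**Figure D1:**
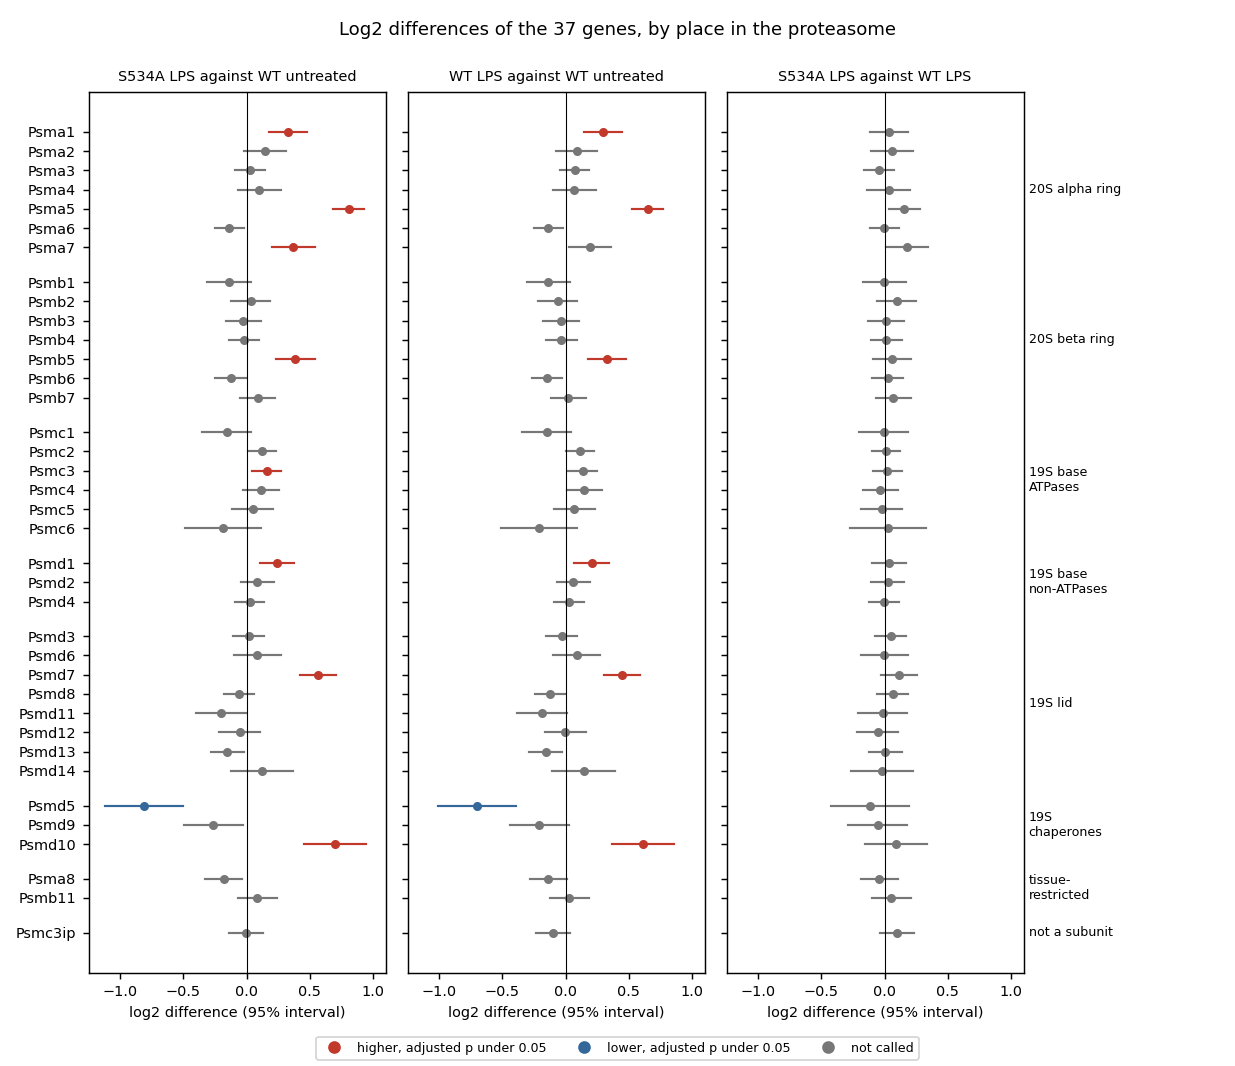
Log2 differences of the 37 genes with limma's 95% intervals, in order of their place in the proteasome, for S534A LPS against WT untreated, WT LPS against WT untreated and S534A LPS against WT LPS livers. Red marks genes called higher, blue genes called lower and grey genes not called. In both comparisons with untreated livers Psma5, Psmd7 and Psmd10 stand to the right and Psmd5 to the left, and no gene is coloured between the genotypes.

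The promoters of Psma5, Psmb5, Psmd10 and Psmd5 are shown because these genes span the alpha ring, the catalytic beta ring and the chaperones that moved in opposite directions. Each runs 5′ to 3′ from 250 bases before the start site to 50 after it (RefSeq, GRCm38.p6). They lie at chr3:108256676-108256975 on the plus strand for Psma5, and on the minus strand at chr14:54617946-54618245 for Psmb5, chrX:140956662-140956961 for Psmd10 and chr2:34870913-34871212 for Psmd5. Capitals mark matches to the antioxidant response element core TGACNNNGC, the element known to be bound by Nfe2l1.
Psma5: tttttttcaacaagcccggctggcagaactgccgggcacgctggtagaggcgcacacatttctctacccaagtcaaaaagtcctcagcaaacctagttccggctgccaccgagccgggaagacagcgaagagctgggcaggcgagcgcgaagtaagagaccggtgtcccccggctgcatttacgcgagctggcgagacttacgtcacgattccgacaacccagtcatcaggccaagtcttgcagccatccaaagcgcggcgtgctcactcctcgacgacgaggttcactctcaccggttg
Psmb5: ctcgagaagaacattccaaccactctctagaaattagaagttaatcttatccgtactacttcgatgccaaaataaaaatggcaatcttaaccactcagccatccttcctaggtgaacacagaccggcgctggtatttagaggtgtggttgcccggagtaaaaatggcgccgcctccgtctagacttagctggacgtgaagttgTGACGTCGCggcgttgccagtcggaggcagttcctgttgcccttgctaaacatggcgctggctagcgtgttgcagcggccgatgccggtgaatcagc
Psmd10: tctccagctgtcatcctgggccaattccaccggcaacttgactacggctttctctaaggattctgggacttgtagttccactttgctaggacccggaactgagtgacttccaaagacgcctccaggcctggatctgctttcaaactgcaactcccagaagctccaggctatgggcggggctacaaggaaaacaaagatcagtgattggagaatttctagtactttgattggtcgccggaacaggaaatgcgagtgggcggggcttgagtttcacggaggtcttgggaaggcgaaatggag
Psmd5: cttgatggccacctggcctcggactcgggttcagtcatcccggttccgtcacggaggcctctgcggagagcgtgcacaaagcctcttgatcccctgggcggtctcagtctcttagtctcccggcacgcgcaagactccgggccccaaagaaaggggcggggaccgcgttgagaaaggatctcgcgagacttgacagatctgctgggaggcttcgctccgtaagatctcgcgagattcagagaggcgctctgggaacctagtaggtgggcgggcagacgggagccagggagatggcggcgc

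The Psmb5 promoter held a match whose first base is at position -47 from the start site, and the other 3 promoters held none in this window. A promoter was listed for 30 of the 37 genes. On either strand, 5 of the 30 (16.7%) matched the core, near the 14% of 27025 listed promoters. Psmb6, Psmc6, Psmd9 and Psmd12 were the other genes with a match, and none of these 4 was called. The core of the interferon-stimulated element, GAAANNGAA, was found in 5 of the 30 promoters (16.7%) and in 9.76% of all listed promoters: those of Psmb3, Psmb4, Psmc2, Psmd4 and Psmd9, none of which was called. The kappaB motif matched 1 of the 30, Psmd12 (3.33%, against 5.14% of all listed promoters). No 2 of these matches overlapped. A match describes letters only and says nothing of binding.

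In the alpha ring, 2 of 7 genes rose in WT LPS livers and 3 of 7 in S534A LPS livers (28.6% and 42.9%, against 9.34% and 11.0% of all genes), and none fell, where 15.6% and 16.0% of all genes did. The counts of the other subcomplexes stand against the same shares, and nothing particular to a subcomplex is read from 3 to 8 genes. Psma5, a structural alpha subunit read by probe set 10495279, stood at 10.44, 10.25, 10.40 and 10.43 in S534A LPS livers, at 10.25, 10.21, 10.25 and 10.18 in WT LPS livers and at 9.58, 9.53, 9.61 and 9.58 in WT untreated livers. All 8 LPS livers lay above all 4 untreated ones. Here and for the called genes below, such separation describes the values that gave the call and is no added support. Psma5 was 1.75-fold higher in S534A LPS than in WT untreated livers, a log2 difference of 0.81 ± 0.06 (SE; limma adjusted p = 2.7e-07). In WT LPS livers it was 1.57-fold higher than in WT untreated livers, by 0.65 ± 0.06 (SE; limma adjusted p = 2.96e-06). A second, dimmer Psma5 probe set rose by 0.64 in S534A LPS and by 0.46 in WT LPS livers.

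Psma1, another alpha subunit, had 11.04, 11.08, 11.11 and 11.13 in S534A LPS livers, 11.13, 10.91, 11.06 and 11.11 in WT LPS livers and 10.84, 10.74, 10.84 and 10.61 in WT untreated livers. Its LPS and untreated livers did not overlap. The log2 difference was 0.33 ± 0.07 for S534A LPS (SE; limma adjusted p = 0.00287) and 0.30 ± 0.07 for WT LPS livers (SE; limma adjusted p = 0.00667), each against WT untreated livers. Psma7, which also sits in the alpha ring, read 10.16, 10.18, 10.16 and 10.26 in S534A LPS livers, 10.18, 9.87, 9.93 and 10.09 in WT LPS livers and 9.75, 9.91, 9.71 and 9.92 in WT untreated livers. All S534A LPS livers lay above all untreated ones, while the WT LPS livers overlapped them. Psma7 rose by 0.37 ± 0.08 in S534A LPS livers (SE; limma adjusted p = 0.00312), and the difference of 0.19 in WT LPS livers was not called (limma adjusted p = 0.094). The other 4 alpha genes, Psma2, Psma3, Psma4 and Psma6, were not called in either comparison.

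Of the 3 proteolytic subunits only Psmb5 was called, and the other 6 genes of the beta ring were not. Psmb5, which carries the chymotrypsin-like site and is the main target of bortezomib, stood at 12.30, 12.37, 12.34 and 12.34 in S534A LPS livers, at 12.32, 12.30, 12.25 and 12.24 in WT LPS livers and at 12.01, 11.78, 12.13 and 11.89 in WT untreated livers. The untreated livers lay below all LPS livers and were the most spread of the groups. Psmb5 rose by 0.39 ± 0.07 in S534A LPS (SE; limma adjusted p = 0.00113) and by 0.33 ± 0.07 in WT LPS livers (SE; limma adjusted p = 0.00416). Without untreated arrays 2 and 4 the difference was 0.27 in S534A LPS and 0.21 in WT LPS livers (limma adjusted p = 0.0106 and 0.0402).

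Psmb6, with the caspase-like site, read 10.72, 10.71, 10.74 and 10.80 in S534A LPS livers, 10.70, 10.74, 10.67 and 10.75 in WT LPS livers and 10.85, 10.98, 10.80 and 10.84 in WT untreated livers. The lowest untreated value sat next to the highest LPS values, and the differences of -0.13 for S534A LPS and -0.15 for WT LPS were not called (limma adjusted p = 0.122 and 0.0712). Psmb7, with the trypsin-like site, had 10.47, 10.56, 10.62 and 10.67 in S534A LPS livers, 10.50, 10.46, 10.47 and 10.61 in WT LPS livers and 10.49, 10.58, 10.48 and 10.40 in WT untreated livers. Its 3 groups overlapped, with differences of 0.09 and 0.02 from untreated livers in S534A LPS and WT LPS livers.

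The immunoproteasome subunits moved on another scale. Psmb8 had 10.17, 10.31, 10.23 and 10.27 in S534A LPS livers, 10.17, 9.91, 9.88 and 10.14 in WT LPS livers and 8.40, 8.47, 8.23 and 8.33 in WT untreated livers. It was 3.70-fold higher in S534A LPS and 3.17-fold higher in WT LPS than in WT untreated livers, by 1.89 ± 0.08 and 1.67 ± 0.08 (SE; limma adjusted p = 1.87e-09 and 8.27e-09). Psmb9 rose by 2.16 and 1.97 and Psmb10 by 1.85 and 1.64 in S534A LPS and WT LPS livers.

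The change of each exchange pair was then compared on the same arrays, as the log2 level of the inducible subunit minus that of the constitutive subunit it can replace. These pairs were tested after their values had been seen, with exact two-sided permutation tests over livers, adjusted over 9 tests, for which 0.0286 is the smallest p that 4 against 4 livers allow. The Psmb8 to Psmb5 ratio was 2.83-fold higher in S534A LPS and 2.53-fold higher in WT LPS than in WT untreated livers. The Psmb9 to Psmb6 ratio was 4.89-fold and 4.33-fold higher, and the Psmb10 to Psmb7 ratio 3.38-fold and 3.08-fold higher. Each of these 6 differences had the smallest possible exact permutation p of 0.0286 (adjusted p = 0.0429). That p restates that all LPS livers lay above all untreated ones. The rise of the inducible subunits had been seen before, so these p-values add no support to it. Between S534A LPS and WT LPS livers the ratios differed by 0.16 ± 0.07, 0.17 ± 0.06 and 0.14 ± 0.08 in log2 (SE), with exact permutation p of 0.0857, 0.0571 and 0.171, none under 0.05. The first of these was 0.04 without the 3 arrays that carried pancreas transcripts, and the other ratios changed by less.

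**Figure D2:**
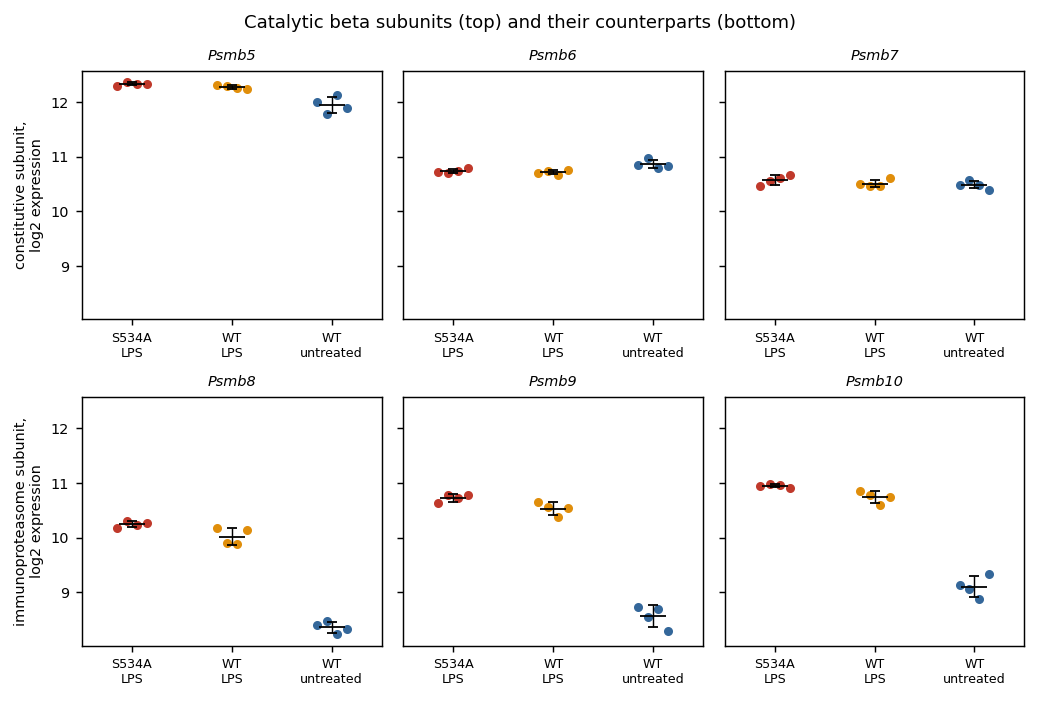
Log2 expression of the constitutive catalytic subunits Psmb5, Psmb6 and Psmb7 (top) and of Psmb8, Psmb9 and Psmb10 (bottom), each point 1 liver, with the mean and SD of the 4 livers of S534A LPS, WT LPS and WT untreated mice. The y axes are the same in all panels and show that the step between LPS and untreated livers is large in the lower row and small in the upper. Levels of different genes come from different probe sets and are not compared.

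Among the 6 ATPases of the 19S base, which form the ring that unfolds and threads substrates, none was called in WT LPS livers. In S534A LPS livers Psmc3 alone was called. Psmc3 stood at 9.82, 9.79, 9.78 and 9.87 in S534A LPS livers, at 9.78, 9.87, 9.81 and 9.71 in WT LPS livers and at 9.67, 9.69, 9.62 and 9.65 in WT untreated livers. All LPS livers lay above all untreated ones, by a small step. Its difference was 0.16 ± 0.05 in S534A LPS livers (SE; limma adjusted p = 0.039) and 0.14 in WT LPS livers (limma adjusted p = 0.0775), and the call was lost under 16 of 23 alternatives. These included leaving out any 1 S534A LPS liver, any 1 untreated liver or WT LPS replicate 3 (0.14 to 0.17, limma adjusted p = 0.0548 to 0.109).

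Of the 3 other base subunits, the scaffold Psmd1 was called and Psmd2 and the ubiquitin receptor Psmd4 were not. Psmd1 read 11.48, 11.40, 11.53 and 11.47 in S534A LPS livers, 11.45, 11.44, 11.44 and 11.42 in WT LPS livers and 11.29, 11.13, 11.36 and 11.14 in WT untreated livers. Untreated arrays 1 and 3 lay close below the LPS livers and arrays 2 and 4 further down. It rose by 0.24 ± 0.06 in S534A LPS (SE; limma adjusted p = 0.0117) and by 0.21 ± 0.06 in WT LPS livers (SE; limma adjusted p = 0.0287). Without untreated arrays 2 and 4 these differences were 0.14 and 0.11 and were not called (limma adjusted p = 0.145 and 0.296). The call in WT LPS livers was also lost without any 1 of WT LPS replicates 1, 3 and 4 or untreated replicates 2 and 4 (0.17 to 0.21, limma adjusted p = 0.0538 to 0.0866).

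In the lid, 1 of 8 genes rose in both comparisons and none fell. Psmd7, the structural partner of the deubiquitinase Psmd14, stood at 10.96, 11.07, 11.06 and 10.95 in S534A LPS livers, at 10.98, 10.83, 10.81 and 10.95 in WT LPS livers and at 10.50, 10.38, 10.54 and 10.35 in WT untreated livers. Every LPS liver lay above every untreated one. Psmd7 was 1.48-fold higher in S534A LPS than in WT untreated livers, by 0.56 ± 0.07 (SE; limma adjusted p = 3.24e-05). In WT LPS livers it rose by 0.45 ± 0.07 (SE; limma adjusted p = 0.000265). Psmd14 itself, which removes ubiquitin from substrates, differed by 0.12 in S534A LPS and 0.14 in WT LPS livers and was not called. Over the lid the median difference was -0.02 in both comparisons.

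The 3 chaperones of 19S assembly did not move together. Psmd10, also called gankyrin and known as an oncoprotein in liver tumours, had 9.67, 9.51, 9.65 and 9.36 in S534A LPS livers, 9.61, 9.11, 9.54 and 9.57 in WT LPS livers and 8.83, 8.76, 9.01 and 8.79 in WT untreated livers. The LPS and untreated livers did not overlap, although WT LPS replicate 2 came close to the highest untreated liver. Psmd10 was 1.62-fold higher in S534A LPS and 1.53-fold higher in WT LPS than in WT untreated livers, by 0.70 ± 0.11 and 0.61 ± 0.11 (SE; limma adjusted p = 0.000442 and 0.00148).

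Psmd5, a chaperone that helps to assemble the ATPase ring, moved the other way. It stood at 8.65, 8.82, 8.87 and 8.67 in S534A LPS livers, at 9.0, 8.37, 9.01 and 9.09 in WT LPS livers and at 9.62, 9.31, 9.70 and 9.63 in WT untreated livers. The highest LPS value was below the lowest untreated one, and WT LPS replicate 2 lay far below its group. Psmd5 fell by 0.81 ± 0.14 in S534A LPS and by 0.70 ± 0.14 in WT LPS livers (SE; limma adjusted p = 0.000836 and 0.00288). Without WT LPS replicate 2 the WT difference was -0.53 (limma adjusted p = 0.0013). Psmd9, the remaining chaperone, differed by -0.26 in S534A LPS and -0.21 in WT LPS livers and was not called.

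**Figure D3:**
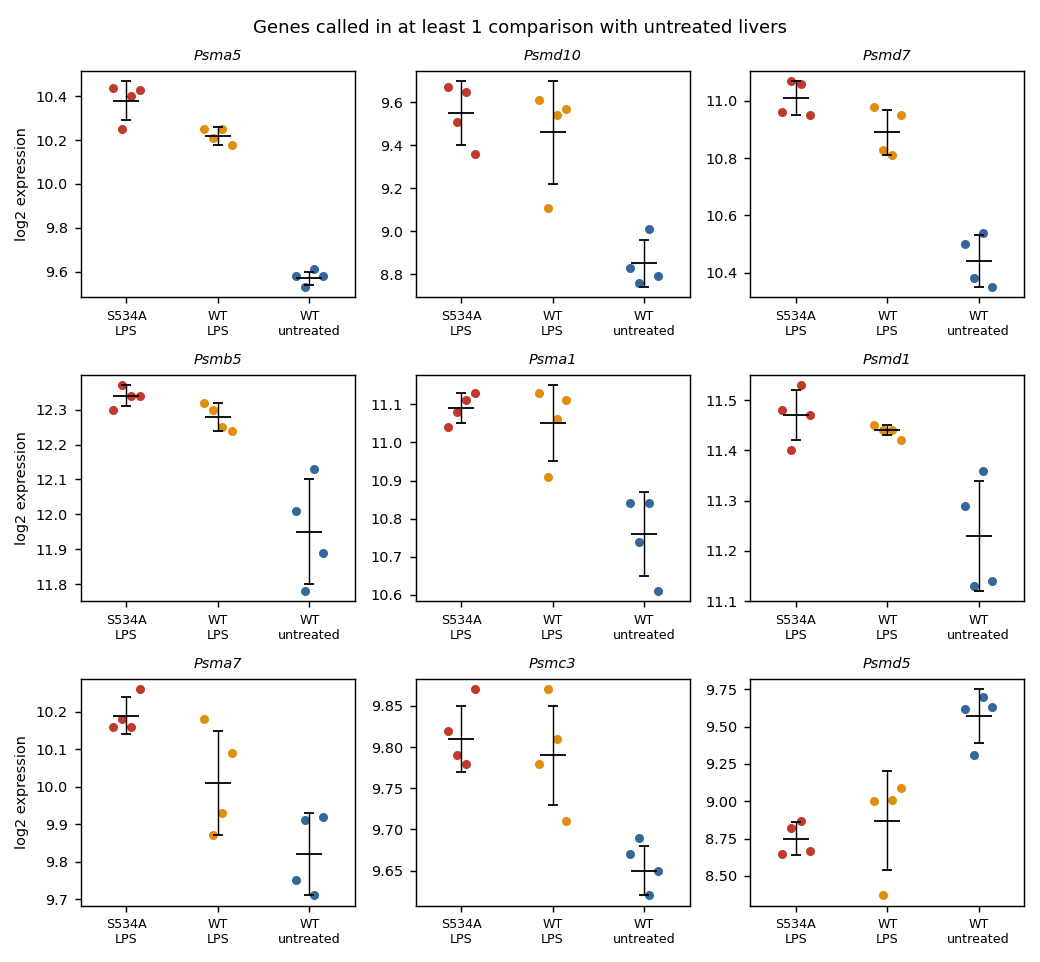
Log2 expression of the 9 genes called in S534A LPS or WT LPS livers against WT untreated livers. Each point is 1 liver and bars give the mean and SD of 4 livers, and each panel has its own y axis. Apart from Psma7 and Psmd5, all 8 LPS livers stand above all untreated ones in each panel. The genes were picked by calls on these same values, so this separation is no added support. Some genes not called, such as Psma6 and Psmc2, were also separated from untreated livers. How often the groups separate over all genes was not counted. In the panel of Psma7 the WT LPS and untreated livers overlap, and in that of Psmd5 the LPS livers stand below.

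Genes not called differed by -0.21 to 0.19 in WT LPS livers and by -0.26 to 0.15 in S534A LPS livers. At an unadjusted p under 0.05, 15 of the 37 genes differed in WT LPS livers (40.5%, against 35.5% of all genes) and 16 in S534A LPS livers (43.2%, against 36.4%). The 95% interval of a member's difference had a median half-width of 0.15. Psma8, Psmb11 and Psmc3ip were at or under the median level of all probe sets, with values between 4.98 and 5.76, and none of them was called.

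Between the genotypes after LPS, no constitutive proteasome gene was called. In S534A LPS against WT LPS livers limma called 0 of the 37 higher and 0 lower, where 0.166% and 0.00502% of all genes were called. At an unadjusted p under 0.05, 2 of the 37 differed (5.41%, against 5.76% of all genes). The differences ran from -0.11 to 0.18 with a median of 0.02, beside 0.01 over all genes, and their 95% intervals together spanned -0.42 to 0.35. All 37 intervals lay within 0.5 on either side of 0, as did those of 18324 of the 19938 genes. The smallest p belonged to Psma5, at 0.16 ± 0.06 (SE; interval 0.04 to 0.28; limma adjusted p = 0.553), and all its S534A LPS livers lay above all WT LPS livers, though the nearest ones both round to 10.25. Psma7 differed by 0.18 ± 0.08 (SE; interval 0.01 to 0.35; limma adjusted p = 0.822) and Psmd7 by 0.11 ± 0.07 (SE; interval -0.03 to 0.26; limma adjusted p = 1). Rela differed by 0.09, with an interval of -0.07 to 0.25.

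Of 46 further genes of the pathway, 35 had a probe set of their own. Limma called 9 higher and 6 lower in WT LPS livers, 10 higher and 4 lower in S534A LPS livers, and 0 between the genotypes. The shares were 25.7% higher and 17.1% lower in WT LPS livers, against 9.34% and 15.6% of all genes, and 28.6% and 11.4% in S534A LPS livers, against 11.0% and 16.0%. Between the genotypes only 0.166% of all genes were called higher and 0.00502% lower. All 5 genes of the immunoproteasome and the PA28 activator rose in both comparisons. Psme1 and Psme2, the PA28 subunits, rose by 0.53 and 0.55 in S534A LPS and by 0.38 and 0.47 in WT LPS livers. Of 3 other regulators, the inhibitor gene Psmf1 rose by 0.58 in S534A LPS and 0.38 in WT LPS livers. The activator gene Psme4 differed by -0.14 in S534A LPS livers, not called, and fell by 0.22 in WT LPS livers. That call was lost under 5 of 23 alternatives, among them the fits without untreated replicate 3 (-0.21, limma adjusted p = 0.0516) and without the 3 arrays with pancreas transcripts (-0.19, limma adjusted p = 0.0806).

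Of the 5 chaperones of 20S assembly, Psmg4 rose by 0.49 in S534A LPS and 0.37 in WT LPS livers, and Psmg1 fell by 0.39 and 0.44. In WT LPS livers the call of Psmg1 was lost without the arrays with pancreas transcripts (-0.35, limma adjusted p = 0.0655), and that of Psmg4 without untreated arrays 1 and 3 (0.29, limma adjusted p = 0.102). Psmg2 fell by 0.30 in WT LPS livers at the edge of the threshold (limma adjusted p = 0.0486) and differed by -0.29 in S534A LPS livers (limma adjusted p = 0.0566). The call was lost under 19 of 23 alternatives, and without the arrays with pancreas transcripts the difference was -0.14 (limma adjusted p = 0.393). Leaving out any 1 liver other than WT LPS replicate 1 was enough to lose it. Pomp, which matures the 20S core, differed by 0.14 in S534A LPS and 0.18 in WT LPS livers and was not called (limma adjusted p = 0.133 and 0.0574). Among 8 other 19S subunits and associated proteins, Zfand5, a proteasome activator, fell by 0.55 in S534A LPS and 0.53 in WT LPS livers. In WT LPS livers it was not called without the arrays with pancreas transcripts (-0.35, limma adjusted p = 0.0969) or without untreated arrays 2 and 4 (-0.42, limma adjusted p = 0.0576). Ecpas, a proteasome adaptor, rose by 0.23 in S534A LPS livers (limma adjusted p = 0.0179) and differed by 0.03 in WT LPS livers. Between the genotypes it differed by 0.20 and was not called (limma adjusted p = 0.438). The call of Ecpas in S534A LPS livers was lost under 5 of 23 alternatives. Among them were the fits without S534A LPS replicate 2 and without untreated replicate 1 (0.21 in both, limma adjusted p = 0.0588 and 0.051).

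Nfe2l1, the factor named above, stood at 10.46, 10.52, 10.36 and 10.50 in S534A LPS livers, at 10.62, 10.45, 10.58 and 10.55 in WT LPS livers and at 9.94, 10.16, 10.06 and 10.17 in WT untreated livers. It rose by 0.38 ± 0.07 in S534A LPS and by 0.47 ± 0.07 in WT LPS livers (SE; limma adjusted p = 0.00102 and 0.000242). Of the other 3 measured genes of its processing, Syvn1, an endoplasmic reticulum ubiquitin ligase, rose by 0.94 in S534A LPS and 0.92 in WT LPS livers. Its untreated livers split as the clock genes did, with 10.67 and 10.83 on arrays 1 and 3 and 10.08 and 10.14 on arrays 2 and 4. Without arrays 2 and 4 the difference was 0.62 in S534A LPS (limma adjusted p = 0.042) and 0.60 in WT LPS livers, where the call was lost (limma adjusted p = 0.0506). Ngly1, the glycanase that trims Nfe2l1, fell by 0.33 and 0.38, and Sel1l was not called. The call of Ngly1 was lost in S534A LPS livers without untreated arrays 2 and 4 (-0.27, limma adjusted p = 0.0653) and in WT LPS livers without the arrays with pancreas transcripts (-0.28, limma adjusted p = 0.0603). Of 9 ubiquitin shuttle and p97 genes, the shuttle Ubqln4 fell by 0.44 in S534A LPS and 0.47 in WT LPS livers. Uba6, the 1 ubiquitin activation gene measured, was not called.

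Within groups, the genes of the standard particle tended to deviate together from array to array. After group means were removed, the mean Pearson correlation over 561 pairs of the 34 genes was 0.20 over 12 arrays, and 69.3% of pairs were above 0. For all 37 genes the mean was 0.16, with 64.6% of pairs above 0. Correlations without single arrays were not computed. Over pairs of all genes the mean was 0.01, with 50.5% above 0, and over pairs of genes above the median probe set level it was 0.05, with 55.4% above 0. The mean was 0.42 in the lid, 0.32 in the alpha ring, 0.11 in the beta ring, 0.07 among the ATPases and 0.85 over the 3 pairs of the other base subunits. Over the 3 pairs of the 19S assembly chaperones it was 0.24, with only 1 pair above 0. These are descriptions, since all pairs share the same arrays and their RNA quality and normalization.

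Single arrays moved with this pattern. On WT LPS replicate 2, which carried pancreas transcripts, 26 of the 34 genes were below their group mean and 22 were the lowest of their group, with a median deviation of -0.07. S534A LPS replicate 3, with the highest pancreas marker mean, deviated upward: 25 of the 34 genes were above their group mean and 15 were the highest, with a median deviation of 0.04. On untreated array 1, without such transcripts, 29 of the 34 were above their group mean. So were 25 on WT LPS replicate 1 and 24 each on WT LPS replicate 4 and untreated array 3. On WT LPS replicate 3, which also carried pancreas transcripts, the median deviation was 0.01. Such counts were not made over all genes, so shifts of whole arrays and of these genes cannot be told apart. Without WT LPS replicate 2, Psma5, Psmd7, Psmd10, Psmb5, Psma1, Psmd1 and Psmd5 kept their calls in WT LPS livers. Of the 34 genes, 14 (41.2%) were higher on both untreated arrays 1 and 3 than on both 2 and 4, a pattern seen for 34.0% of all genes, and 2 (5.88%) were lower on both, against 22.2%. Psma1, Psmb5, Psmd1, Psmd7 and Psmd10 were among the 14. Over the 37 genes the mean per array was 10.00 to 10.05 in S534A LPS livers, 9.90 to 10.04 in WT LPS livers and 9.92 to 9.99 in WT untreated livers.

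**Figure D4:**
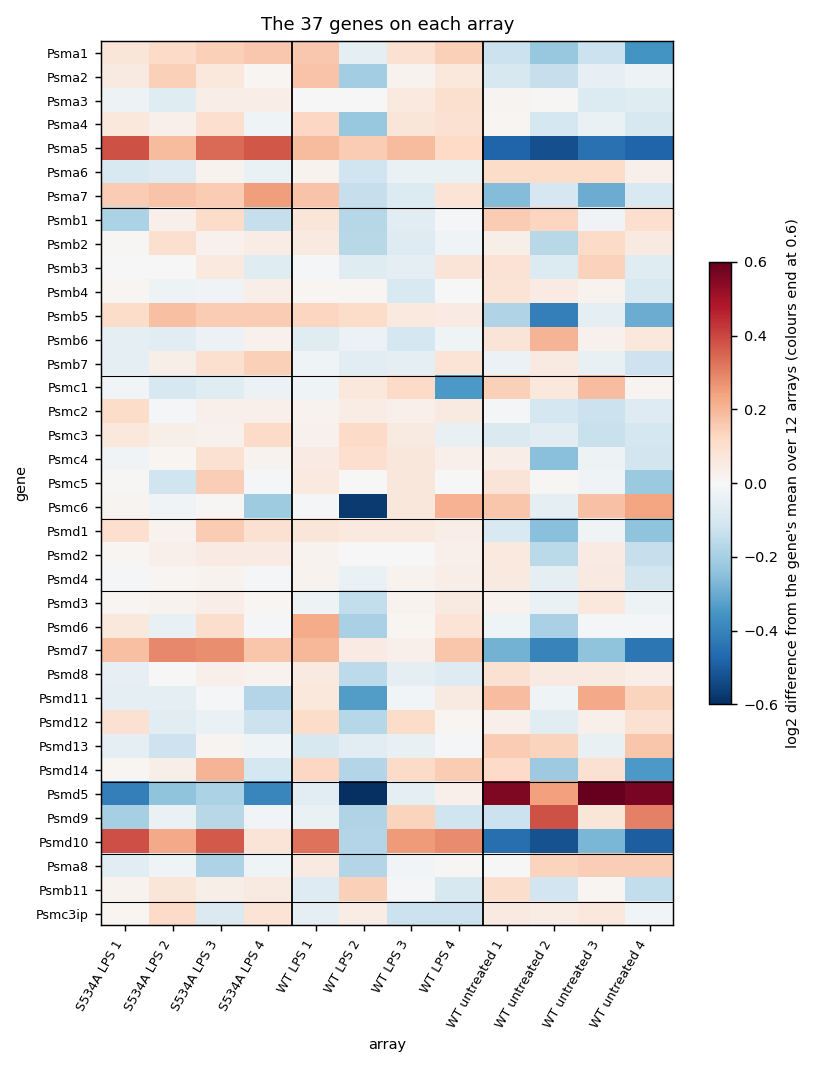
The 37 genes (rows) on the 12 arrays (columns, grouped as S534A LPS, WT LPS and WT untreated), coloured by the log2 difference from each gene's mean over all arrays, with colours ending at 0.6 in either direction. Psma5, Psmd7 and Psmd10 are mostly red in the LPS columns and blue in the untreated ones, with a pale blue Psmd10 on WT LPS replicate 2. Psmd7 on WT LPS replicates 2 and 3 and Psmd10 on S534A LPS replicate 4 lie close to the gene's mean and are nearly white. Psmd5 is dark red in 3 of the 4 untreated columns, and the WT LPS replicate 2 column is bluer than its neighbours.

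In WT LPS against WT untreated livers, markers of other liver cells were also called, where 9.34% of all genes rose and 15.6% fell. Of 13 neutrophil markers, 10 rose and none fell in WT LPS against untreated livers, and their mean per array was 6.85 to 7.11 in S534A LPS, 6.56 to 6.76 in WT LPS and 5.55 to 5.71 in WT untreated livers. Of 5 measured monocyte markers 3 rose, with means of 6.44 to 6.65, 6.33 to 6.72 and 5.76 to 5.83 in the same order of groups. Of 11 Kupffer cell markers 1 rose and 4 fell, with means of 8.69 to 8.87, 8.40 to 9.0 and 8.86 to 9.31. Of 11 sinusoidal endothelial markers 1 rose and 5 fell, with means of 8.68 to 8.93, 8.70 to 9.13 and 9.30 to 9.46. Of 10 stellate cell and fibroblast markers 1 rose and 4 fell. Of 9 measured lymphocyte markers 1 rose, near the share of all genes. The lymphocyte means overlapped, at 5.61 to 5.81, 5.59 to 5.73 and 5.62 to 5.66 in the same order of groups. The part of these cell types in the differences of the proteasome genes was not tested.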

How the data were processed

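Affymetrix GeneChip whole-transcript arrays measured the RNA of 12 livers, 3 groups of 4. The deposited log2 values were made by the authors with RMA, per the submitters' processing notes; RMA corrects background, quantile normalizes and summarises probes per probe set. Its version, like the probes' genome build, was not given in the sources used here. Array number limits the precision. Values were used as deposited, without a filter on dim genes.

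Of 35556 probe sets, 21789 had 1 gene symbol, 1621 several and 12146 none, and only the first were used. Entrez identifiers of 21698 of them matched the GRCm38.p6 gene table, which changed no symbol of the set, and none of the several-symbol probe sets held one of its genes. The brightest probe set over all arrays stood for a gene. Psma3, Psma5, Psmb3, Psmc1 and Psmd2 had other probe sets too. Against untreated livers, the other Psmb3 set differed by 0.13 in S534A LPS and 0.05 in WT LPS livers. The Psmb3 set used differed by -0.02 and -0.03. In S534A LPS livers a dimmer Psma3 set also differed in sign, at -0.03 against 0.03.

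limma 3.58.1 in R 4.3.3 (lmFit, eBayes, two-sided) was fitted on the 12 arrays together (residual degrees of freedom 9, prior 3.54) and tested on simulated data. Exact permutation tests used scipy 1.17.1. The genes, lists, tests and naming rule were chosen with earlier results of these data known. By that rule, values on every array are given for Psmb5, Psmb6, Psmb7, for up to 6 called genes per comparison and direction, and for the 3 smallest p where none was called. Of the pathway, it names the immunoproteasome and PA28 genes, Pomp, Nfe2l1 and up to 4 called genes of a list. Values per array of Psmc3, Psmb8 and Nfe2l1, and the mention of other genes, were added after values were seen. Promoters were taken from RefSeq. A planned comparison of protein sequences was not made. Alternatives were each array left out, 3 arrays with pancreas transcripts left out, other normalization, a filter on dim genes, the mean of probe sets, other variance settings, array weights, a stricter threshold, 2-group fits and a replicate block.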

Additional observations from a re-analysis of the deposited data

Results flagged for a closer look

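Values were singled out by Dixon's test at 95%, where the highest or lowest of the 4 livers of a group lay apart from the other 3. The 55 genes examined were the 37 of the set, the pathway genes given with values, and Rela. Of their 165 groups of 4 livers, 13 met this (7.88%), where chance gives about 1 in 20. WT LPS replicate 2 held 5 of the 13, all low. It had Psma4 at 10.18, against 10.48 to 10.53 in the other WT LPS livers, and Psmd10 at 9.11, against 9.54 to 9.61. It had Psmd14 at 10.07, against 10.36 to 10.40, Psmd5 at 8.37, against 9.0 to 9.09, and Ubqln4 at 7.90, against 8.21 to 8.26. WT LPS replicate 3 had Psmb4 at 11.92, against 12.01 to 12.02. WT LPS replicate 1 was high for Psmg4, at 8.15 against 7.88 to 7.92, and for Syvn1, at 11.67 against 11.22 to 11.28. Among untreated livers, Psma6 was 11.23 on replicate 4, against 11.31 on the others, and Psma8 was 5.16 on replicate 1, against 5.30 to 5.31. Psmd13 was 9.79 on untreated replicate 3, against 9.97 to 10.00. On untreated replicate 2, Psmd6 was 10.20, against 10.37 to 10.39, and Psmg4 was high at 7.83, against 7.5 to 7.53.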

How the results depend on the processing

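With 1 array per liver and 4 livers per group, the spread between livers limits which differences can be called. No call reversed its direction under any alternative. Psma5, Psmd7, Psmd10, Psmb5 and Psmd5 kept their calls in both comparisons with untreated livers under all 23 alternatives, and Psma7 did so in S534A LPS livers. Psma1 lost its call once, in WT LPS livers without untreated arrays 2 and 4 (0.22, limma adjusted p = 0.0683). Psmd1 lost its call under 2 alternatives in S534A LPS and 10 in WT LPS livers. The 23 alternatives do not count the stricter threshold of adjusted p under 0.01. At that threshold Psmd1 was called in neither comparison. Psmc3, Ecpas and Ngly1 in S534A LPS livers and Psme4, Psmg2 and Psmg4 in WT LPS livers were not called at it either. Over all alternatives the count of genes that rose ran from 6 to 9 in S534A LPS and from 5 to 8 in WT LPS livers, and it was 0 between the genotypes. The count that fell was 1 to 3 in S534A LPS and 1 to 2 in WT LPS livers with single livers left out. It was 2 in S534A LPS livers with repeated quantile normalization, which added Psma8, and 2 in WT LPS livers with arrays centred on their median, which added Psmb6. With array weights it was 4 in S534A LPS livers (added Psma6, Psma8, Psmd11) and 3 in WT LPS livers (added Psma6, Psmb6). Without untreated arrays 1 and 3, which like the run without 2 and 4 was chosen after seeing the data, it was 3 in both (added Psmd9, Psmd13). The cause of these shifts was not tested. The median difference of the 37 genes ran from -0.02 to 0.09 in S534A LPS, from -0.04 to 0.07 in WT LPS against untreated livers, and from -0.02 to 0.03 between the genotypes. Replicate numbers did not pair the samples, with correlations of same-numbered deviations from -0.27 to 0.21. With the replicate block, 7 genes rose and 1 fell in S534A LPS livers, and 6 rose and 1 fell in WT LPS livers. Psmg2 in WT LPS livers and Psmc3 and Ecpas in S534A LPS livers were not called with it.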
